A study of Mus musculus with 24 samples.

Results

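LSKs are the lineage-negative, Sca-1-positive, c-Kit-positive cells of mouse bone marrow, the fraction that holds stem cells and early progenitors. Loss of miR-142 and expression of BCR-ABL were combined in these cells in a design of 4 genotypes, and the comparison described here is their interaction: for each gene, the effect of miR-142 loss in BCR-ABL LSKs minus its effect in normal LSKs. It used all 24 bulk RNA-seq libraries of the series, 1 library per mouse. Each of the 4 groups held 3 female and 3 male mice. WT mice carried neither change. The miR-142 KO mice were miR-142 -/-, so that every cell of the animal lacked the gene. CP CML mice, labelled BCR-ABL+, had intact miR-142 and the SCLtTA/BCR-ABL transgenes, in which a tetracycline-controlled transactivator under the SCL promoter drives BCR-ABL once tetracycline is withdrawn. BC CML mice, labelled Mir142 KO BCR-ABL+, came from crosses of these 2 lines. All mice were C57BL/6, the methods state that BCR-ABL mice were matched for age, sex and transgene levels without naming the sequenced ones, and BCR-ABL had been induced for 2 weeks. Ages, and whether the WT and miR-142 KO mice carried either transgene or had received tetracycline, were not given in the sources used here.

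Total counts were 16267965 in 1 CP CML library and 20206360 to 24687077 in the other 23. The gate was checked against its markers. CPM are counts per 1000000 counts of the library, unscaled for the genes of this check and scaled elsewhere. Kit, which encodes c-Kit, was at 636 to 1290 CPM over the 24 libraries, and Ly6a, which encodes Sca-1, at 32.1 to 155 CPM, while the T cell gene Cd3e did not exceed 4.06 CPM. Itgam, which encodes the myeloid lineage marker CD11b, was at 55.9 to 118 CPM and Il7r, the interleukin 7 receptor of lymphoid progenitors, at 13.3 to 92.6 CPM, and the part of such cells was not tested. Mir142 itself had 0 counts in every miR-142 KO and BC CML library. Library 3 of the miR-142 KO group stood apart from the other 5 of its group on the first principal component, at -19.8 against 7.66 to 19.9, and counts without it are given beside the main ones.

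MicroRNAs pair through their seed with sites in messenger RNAs and lower the stability or translation of those transcripts. miR-142 is made in blood cells and gives a mature strand from each arm of its hairpin. BCR-ABL is the constitutively active tyrosine kinase that causes chronic myeloid leukemia (CML). Where 2 changes act on a gene independently, their log2 effects add, and a double mutant that departs from the sum shows an interaction. The strands deleted in the KO are shown because the seeds define which transcripts could be direct targets. RefSeq (GRCm38.p6) lists them as follows, 5′ to 3′, with seed bases 2 to 8 in capitals.
miR-142a-5p: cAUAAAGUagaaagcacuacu
miR-142a-3p: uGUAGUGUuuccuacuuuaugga

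The first question was how many genes did not respond additively. Of 13520 genes tested with edgeR's quasi-likelihood test, 539 (3.99%) passed an adjusted p of 0.05 for the interaction and are called interaction genes here. By comparison, 36.3% of the same genes passed for miR-142 loss in normal LSKs, 38.0% for miR-142 loss in BCR-ABL LSKs, 45.4% for BCR-ABL in miR-142 wild-type LSKs and 39.6% for BCR-ABL in miR-142 KO LSKs. BC CML LSKs differed from WT for 65.0% of genes, and the sum of the 2 single effects differed from 0 for 44.7%. At an unadjusted p under 0.05, 2611 genes passed for the interaction. The interaction was positive for 258 genes (1.91% of those tested), which were higher in BC CML LSKs than the sum of the single effects, and negative for 281 (2.08%). This split moved with the scaling: with each library in turn as the reference of the TMM normalization, 531 to 589 genes were called and the positive share ran from 35.8% to 50.2%. It also moved with single mice. Without miR-142 KO library 3, 768 genes were called, 279 positive and 489 negative, and the negative genes numbered 526 without WT library 3 and 464 without miR-142 KO library 5. The positive genes fell to 150 without BC CML library 1, 151 without WT library 5, 154 and 160 without CP CML library 4 or 2, 164 without miR-142 KO library 6 and 167 without WT library 2. The median absolute interaction was 0.55 (log2) over the 539 genes and 0.15 over all genes tested, and 168 interaction genes departed from the sum by at least 1 on the log2 scale.

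Each interaction gene was then classed by its position in BC CML LSKs. A gene was more than additive where BC CML lay farther from WT than the sum of the single effects did, less than additive where it lay nearer, and reversed where the sum and the BC CML value passed their tests in opposite directions. Less than additive genes made up 392 of 539 (72.7%), more than additive genes 137 (25.4%), and 10 genes were reversed. The less than additive share was 71.9% to 74.2% over the 24 TMM references. It was not a majority in males alone or when genes were classed by the miR-142 effect alone, as given in the closing sections. Without WT library 3, 635 genes were less than additive. More than additive genes numbered 227 without miR-142 KO library 3 and 80 without BC CML library 1. Reversed genes numbered 5 without WT library 1, 5 without WT library 4 and 6 without WT library 5. The classes have a built-in lean toward less than additive. WT libraries enter both single effects, so the sum carries more error than the observed BC CML difference.

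**Figure D1:**
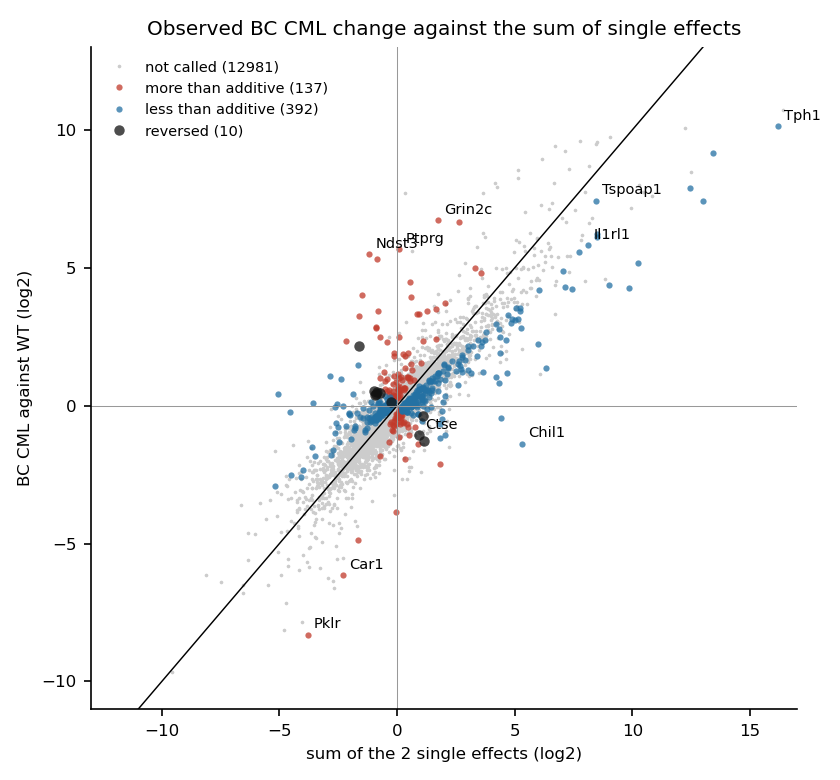
Each point is 1 of 13520 genes. The horizontal axis is the sum of the log2 differences of miR-142 KO and CP CML from WT, the vertical axis is the log2 difference of BC CML from WT, and the diagonal marks additivity. The 392 less than additive genes lie between the diagonal and the horizontal axis or past that axis, the 137 more than additive genes lie farther from the horizontal axis than the diagonal does, on either side of that axis, and the 10 reversed genes sit in the quadrants where sum and observation differ in sign.

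The single effects sorted these genes. Among 1403 genes that both miR-142 loss and BCR-ABL raised, 150 (10.7%) were interaction genes, of which 148 were less than additive and 2 more than additive. Among 1173 genes that both lowered, 81 (6.91%) were called, 80 of them less than additive and 1 reversed. The single effects opposed each other for 166 genes raised by miR-142 loss and lowered by BCR-ABL, of which 14 were called, and for 63 genes with the opposite signs, of which 5 were called. In 5275 genes with neither single effect past its threshold, 78 (1.48%) were interaction genes, and 66 of these were more than additive. Because WT is shared by both single effects and by the interaction, these shares are descriptions and not independent tests. The class rule also sets them in part. Where both single effects are small, so is their sum, and a called gene tends to be more than additive. Genes picked for called effects in the same direction have a large sum, which favours less than additive.

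Reading the calls of the 4 genotypes together gave 10 recurring patterns, which were set after the values were seen. They rest on the sign of the interaction and on calls against WT. Absent from BC CML means not called there against WT, which does not show that there was no change. The most frequent was a rise with either change that did not add up in BC CML (119 genes), followed by a fall with either change that did not add up (62 genes). Another 41 genes passed as higher than WT only when both changes were present and 29 as lower only then. A BCR-ABL-induced rise was not called against WT in BC CML for 35 genes and a BCR-ABL-induced fall for 34. An effect of miR-142 loss called in normal LSKs was likewise not called against WT in BC CML for 30 raised and 13 lowered genes. Finally, 29 genes raised by either change and 18 lowered by either change did not differ from WT at the threshold in BC CML. The remaining 129 fitted none of these. These counts depended on single mice. With each left out in turn, the first pattern ranged from 84 to 288 genes and moved by more than 1.5 times without WT library 3 (288), miR-142 KO library 3 (190) or miR-142 KO library 5 (183). The second ranged from 23 to 71 and moved that far in 17 of 24 such fits. Genes raised only together numbered 24 without BC CML library 1, 26 without BC CML library 2, 26 without WT library 5 and up to 55 in the other fits. Genes lowered only together ranged from 17 without BC CML library 1 to 68 without BC CML library 3, and also rose past 1.5 times without WT library 3 (45) or 4 (62), miR-142 KO library 3 (67) or 5 (66) or CP CML library 1 (44). A BCR-ABL-induced rise absent from BC CML was counted for 23 genes without WT library 1 and for 57, 67, 64 and 60 without WT library 3 or 4, miR-142 KO library 5 or CP CML library 1, and such a fall for 22 and 18 without CP CML library 2 or 4. A rise with miR-142 loss that was absent from BC CML was counted for 18 and 19 genes without miR-142 KO library 4 or BC CML library 1 and for 56 and 48 without miR-142 KO library 3 or 5. Genes lowered by either change and not in BC CML numbered 11 without WT library 2, WT library 5 or CP CML library 3 and 9 without CP CML library 4. The other 2 patterns stayed within 1.5 times of their count.

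**Figure D2:**
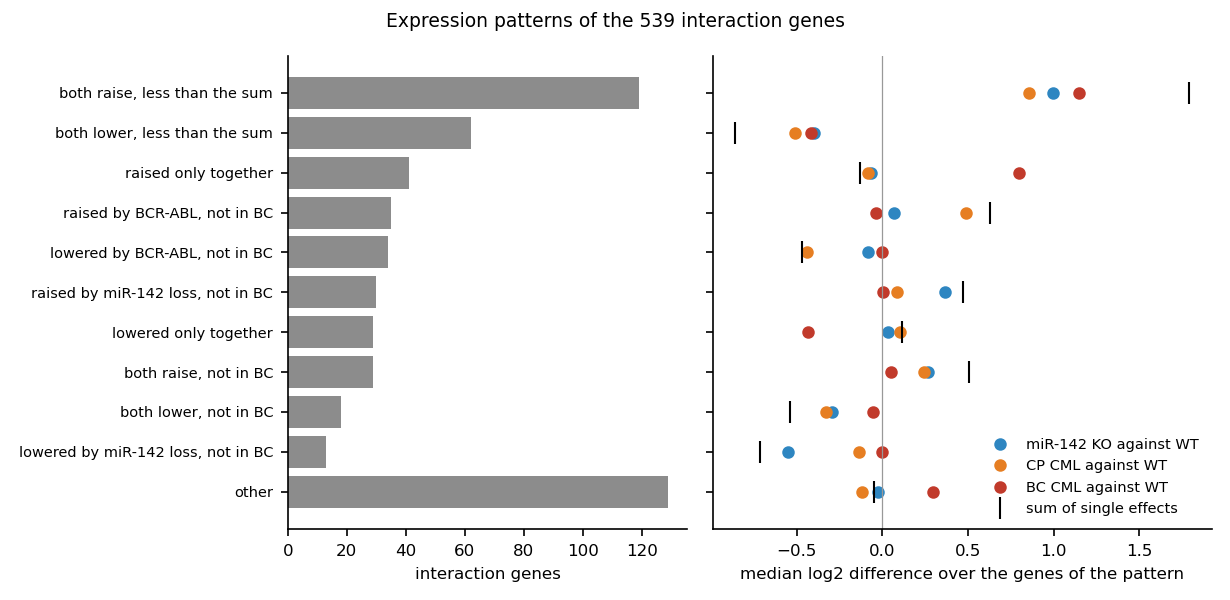
Left, the number of interaction genes in each expression pattern. Right, for the genes of each pattern, the median log2 difference from WT of each mutant group and of the sum of the single effects (vertical tick); for the 119 genes that both changes raised, the BC CML median was 1.15 against a sum of 1.79, and for the 41 genes raised only together it was 0.80 against -0.13.

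Among the largest positive interactions were genes that were low in 3 groups and high in the double mutant. Ptprg, a receptor protein tyrosine phosphatase (mm10 chr14:11553553-12242039), was at 0.175 to 0.401 CPM (median 0.307) in WT and at 0.133 to 0.398 CPM (median 0.191) in miR-142 KO LSKs. With BCR-ABL, Ptprg was at 0.219 to 0.788 CPM (median 0.46) in the presence of miR-142 and at 6.43 to 26.2 CPM (median 16.1) in its absence. The 6 BC CML libraries all lay above each of the other 18, and additive effects would have given 0.324 CPM. The interaction was 5.59 ± 0.53 (log2 ± SE, adjusted p = 6.56e-07). Ndst3, which encodes a heparan sulfate sulfotransferase, behaved alike, at 0 to 0.287 CPM (median 0.103) in WT and at 0 to 0.0442 CPM (median 0.0433) in miR-142 KO LSKs. With BCR-ABL, Ndst3 was at 0.0426 to 0.438 CPM (median 0.23) in the presence of miR-142 and at 3.03 to 8.48 CPM (median 6.3) in its absence (log2 interaction 6.69 ± 0.85, SE, adjusted p = 6.34e-05). Fermt2, the integrin activator kindlin-2, reached 1.92 to 6.47 CPM (median 3.54) in BC CML LSKs and did not exceed 0.713 CPM in any other library (log2 interaction 4.86 ± 0.68, SE, adjusted p = 2.62e-04). These 3 genes had few counts outside BC CML, so the size of their log2 interactions rests on those few counts.

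Dnah7a, an axonemal dynein heavy chain, was at 1.04 to 7.1 CPM (median 2.49) in BC CML LSKs and at most 0.508 CPM elsewhere (log2 interaction 5.49 ± 0.96, SE, adjusted p = 0.00228). Mab21l1 reached 1.63 to 4.17 CPM (median 2.45) in BC CML LSKs against at most 0.546 CPM in the other groups (log2 interaction 6.17 ± 1.14, SE, adjusted p = 0.00383). Grin2c, an NMDA receptor subunit, reached 1.66 to 5.43 CPM (median 3.88) against at most 0.667 CPM elsewhere (log2 interaction 4.98 ± 1.34, SE, adjusted p = 0.0347), and BCR-ABL alone had raised it. The call of Grin2c was lost in 7 of 24 fits without 1 library, with adjusted p up to 0.126. Mean levels of Dnah7a, Mab21l1 and Grin2c in miR-142 KO LSKs were 0.0368, 0.00684 and 0.00737 CPM. The size of their log2 interactions likewise rests on few counts outside BC CML. Lxn, latexin, a carboxypeptidase inhibitor known as a negative regulator of stem cell number, had at least 391 counts in every library. It was at 19.9 to 24.4 CPM (median 21.5) in WT and at 19.4 to 22.2 CPM (median 21.3) in miR-142 KO LSKs. With BCR-ABL, Lxn was at 18.1 to 23.7 CPM (median 19.7) in the presence of miR-142 and at 31.8 to 46.1 CPM (median 37.5) in its absence. Neither single change moved Lxn past the threshold, the BC CML range lay above the other 3, and the interaction was 0.95 ± 0.11 (log2 ± SE, adjusted p = 3.35e-05).

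The converse, a fall in the double mutant, was measured for Rhag, Epx, Car1 and Pklr. Rhag, the erythroid Rh-associated glycoprotein, was at 2.84 to 8.59 CPM (median 5.89) in WT and at 0.31 to 7.03 CPM (median 2.71) in miR-142 KO LSKs. With BCR-ABL, Rhag was at 2.49 to 4.02 CPM (median 2.97) in the presence of miR-142 and at 0 to 0.468 CPM (median 0.137) in its absence (log2 interaction -3.23 ± 0.78, SE, adjusted p = 0.0199). Epx, eosinophil peroxidase, had medians of 65.5, 232, 219 and 24.1 CPM in the same order of groups, but its WT libraries alone spanned 9.17 to 372 CPM. Its interaction of -3.91 ± 1.03 (log2 ± SE, adjusted p = 0.0316) lost its call without BC CML library 1 (adjusted p = 0.0553) or library 2 (0.0502). Among the more than additive genes that BCR-ABL also lowered alone, Car1, the erythroid carbonic anhydrase, was at 37 to 83.9 CPM (median 61.1) in WT and at 2.12 to 105 CPM (median 59.6) in miR-142 KO LSKs. With BCR-ABL, Car1 was at 5.87 to 28.3 CPM (median 11.5) in the presence of miR-142 and at 0.424 to 2.22 CPM (median 0.6) in its absence (log2 interaction -3.83 ± 0.88, SE, adjusted p = 0.0153). Pklr, the pyruvate kinase of liver and red cells, had a median of 8.51 CPM in WT, 3.77 CPM with miR-142 loss and 1.04 CPM with BCR-ABL, and did not exceed 0.101 CPM in BC CML LSKs (log2 interaction -4.50 ± 1.16, SE, adjusted p = 0.028), with an adjusted p of 0.0557 without BC CML library 1. Car1 alone was called among the 19 tested genes of the erythroid list (5.26%), which held neither Rhag nor Pklr. The median interaction of that list, -0.33, was 0.22 in females and -1.41 in males. Epx alone was called among 10 eosinophil genes (10%). The summed level of the erythroid genes was 711 to 919 CPM in WT and 485 to 715 CPM in miR-142 KO LSKs, against 475 to 656 and 355 to 505 CPM with BCR-ABL in the presence and absence of miR-142. That of the eosinophil genes spanned 64.1 to 1900, 271 to 1980, 354 to 1560 and 70.7 to 271 CPM in the same order. In bulk libraries fewer cells of a type and less RNA per cell cannot be told apart, and the part of such cells in these results was not tested.

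Genes of other functions also fell in the double mutant. Hip1r, an endocytic adaptor that binds actin, was at 89.8 to 104 CPM (median 96.2) in WT and at 87.7 to 116 CPM (median 106) in miR-142 KO LSKs. With BCR-ABL, Hip1r was at 89.1 to 97 CPM (median 91.7) in the presence of miR-142 and at 66.5 to 80.3 CPM (median 70.4) in its absence, where all 6 libraries lay below the other 18 (log2 interaction -0.43 ± 0.08, SE, adjusted p = 0.00449). Syde2, a GTPase-activating protein, had medians of 29.8, 29.9 and 32.2 CPM in the other 3 groups and 23.1 CPM in BC CML LSKs (log2 interaction -0.48 ± 0.10, SE, adjusted p = 0.0102). Cirbp, the cold-inducible RNA-binding protein, rose with BCR-ABL alone, from a median of 74.6 to 106 CPM, and was at 50.2 CPM in BC CML LSKs (log2 interaction -1.08 ± 0.23, SE, adjusted p = 0.00976). Scd1, the stearoyl-CoA desaturase that makes monounsaturated fatty acids, followed the same course at a low level, with a median of 1.93 CPM in WT, 3.64 CPM with BCR-ABL alone and 0.417 CPM with both changes (log2 interaction -2.26 ± 0.41, SE, adjusted p = 0.00348).

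**Figure D3:**
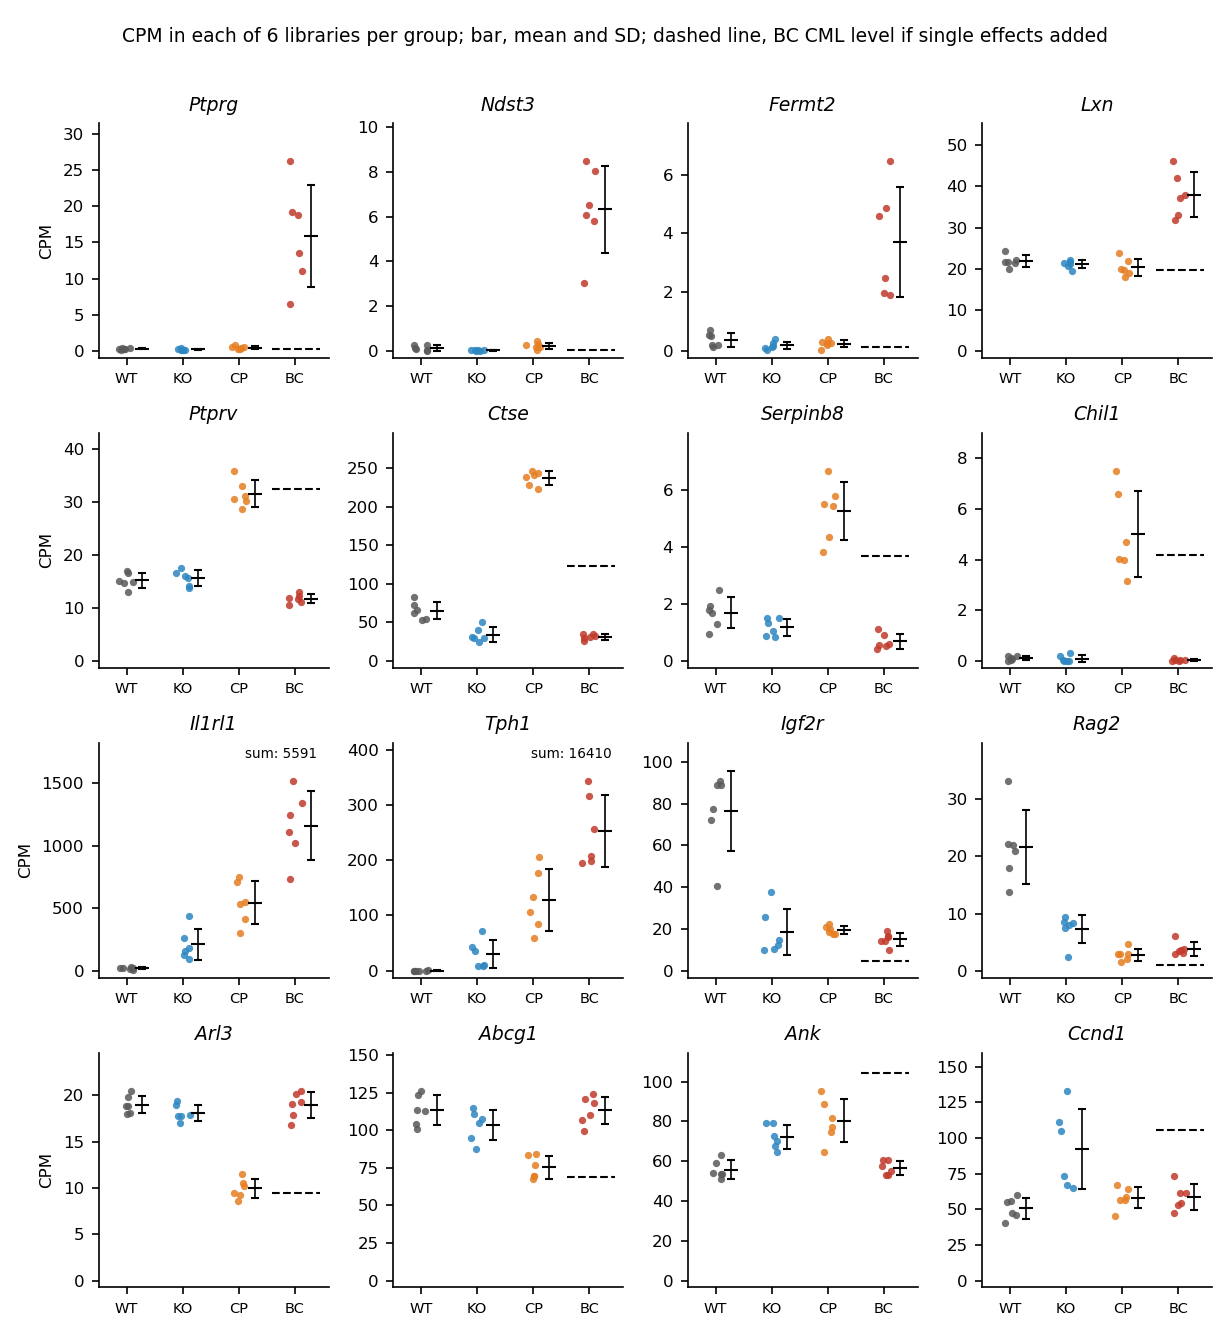
CPM of 16 interaction genes in each of the 6 libraries of each group (KO, miR-142 KO; CP, CP CML; BC, BC CML), on linear axes. Bars give the mean and SD of 6 libraries, and the dashed line gives the BC CML level that additive log2 effects would predict, printed as a number where it lies off the axis. Ptprg, Ndst3, Fermt2 and Lxn rise above it, Ptprv, Ctse, Serpinb8 and Chil1 lie below it, and Il1rl1 and Tph1 fall short of sums of 5591 and 16410 CPM. The sum of Tph1 rests on a WT mean of 0.222 CPM.

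In the opposite arrangement, BCR-ABL raised a gene when miR-142 was present and not when it was absent. Ptprv, a receptor-type tyrosine phosphatase known as a p53 target, was at 13.1 to 17 CPM (median 15) in WT and at 13.8 to 17.6 CPM (median 15.9) in miR-142 KO LSKs. With BCR-ABL, Ptprv was at 28.7 to 35.9 CPM (median 30.8) in the presence of miR-142 and at 10.6 to 13.1 CPM (median 11.8) in its absence. Its CP CML range lay wholly above those of the other groups, its BC CML range met that of WT at 13.1 CPM and lay otherwise below, and the interaction was -1.46 ± 0.11 (log2 ± SE, adjusted p = 1.08e-08). Ctse, the endosomal aspartic protease cathepsin E, was at 53 to 83.1 CPM (median 63.9) in WT and at 24.2 to 50 CPM (median 30.5) in miR-142 KO LSKs. With BCR-ABL, Ctse was at 224 to 247 CPM (median 240) in the presence of miR-142 and at 25.3 to 35.2 CPM (median 31.6) in its absence. The log2 effect of miR-142 loss on Ctse was -0.94 in normal and -2.92 in BCR-ABL LSKs, and that of BCR-ABL was 1.86 with miR-142 present (log2 interaction -1.98 ± 0.19, SE, adjusted p = 6.56e-07). In its absence the BCR-ABL effect on Ctse was -0.12, with an adjusted p of 0.501. Ptprv and Ctse were reversed: the sum of single effects was above WT and BC CML was below it.

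Serpinb8, an intracellular serine protease inhibitor, was the remaining gene with a negative interaction in the reversed class, at 3.82 to 6.66 CPM (median 5.46) in CP CML and 0.408 to 1.11 CPM (median 0.58) in BC CML against 0.944 to 2.5 CPM (median 1.74) in WT LSKs (log2 interaction -2.42 ± 0.34, SE, adjusted p = 2.62e-04). Chil1, the secreted chitinase-like protein YKL-40, was near 0 in every WT, miR-142 KO and BC CML library, none above 0.309 CPM, and was at 3.15 to 7.5 CPM (median 4.37) in CP CML LSKs (log2 interaction -6.70 ± 1.09, SE, adjusted p = 0.00117). Tespa1, a signalling adaptor of thymocytes, rose with BCR-ABL from a median of 105 to 133 CPM and was at 107 CPM in BC CML LSKs (log2 interaction -0.63 ± 0.15, SE, adjusted p = 0.0228). Lifr, the leukemia inhibitory factor receptor and a published miR-142 target, and Cx3cr1, the fractalkine receptor of monocytes, had the same pattern, with interactions of -1.03 ± 0.28 (log2 ± SE, adjusted p = 0.0389) and -1.87 ± 0.50 (log2 ± SE, adjusted p = 0.0338). Those last 2 calls were lost in 12 and 9 of the 24 fits that left out 1 library, with adjusted p up to 0.0646 and 0.0605.

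The other 7 reversed genes ran the other way, below WT by the sum and above it in BC CML. Sel1l3, a membrane protein, was at 0.175 to 2.14 CPM (median 1.41) in WT and at 0.31 to 1.1 CPM (median 0.761) in miR-142 KO LSKs. With BCR-ABL, Sel1l3 was at 0.743 to 0.924 CPM (median 0.82) in the presence of miR-142 and at 4.14 to 7.91 CPM (median 6.14) in its absence (log2 interaction 3.77 ± 0.49, SE, adjusted p = 1.03e-04). Rnase6, a ribonuclease of myeloid cells, fell from a median of 27.4 CPM in WT to 19.3 with miR-142 loss and 20.4 with BCR-ABL and was at 34.4 CPM in BC CML LSKs (log2 interaction 1.31 ± 0.19, SE, adjusted p = 3.71e-04). Iqcg, which encodes a calmodulin-binding flagellar protein, was at 1.55 to 2.58 CPM (median 1.79) in WT, 0.657 to 1.21 CPM (median 0.886) in CP CML and 2.25 to 3.25 CPM (median 2.51) in BC CML LSKs (log2 interaction 1.30 ± 0.24, SE, adjusted p = 0.00334). The noncoding RNA Dubr, the semaphorin receptor gene Plxna2 and the aldo-keto reductase gene Akr1c13 had log2 interactions of 1.19 ± 0.22, SE, adjusted p = 0.00356, of 1.51 ± 0.33, SE, adjusted p = 0.0112, and of 1.36 ± 0.26, SE, adjusted p = 0.00449. The remaining one was Sfxn2, a mitochondrial carrier gene outside the rule for named genes and given for completeness after its values were seen. Akr1c13 belongs to a family of close paralogs, between which shared reads could be split.

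The largest pattern comprised genes that each change raised and that BC CML raised no further than part of the sum. Il1rl1, the IL-33 receptor ST2 of mast cells and basophils, was at 9.3 to 33.6 CPM (median 20.7) in WT and at 90.4 to 436 CPM (median 171) in miR-142 KO LSKs. With BCR-ABL, Il1rl1 was at 299 to 748 CPM (median 541) in the presence of miR-142 and at 730 to 1520 CPM (median 1180) in its absence. The medians rose in the order in which the groups are given, with CP CML overlapping both of its neighbours, and BC CML was the highest group although additive effects would have given 5591 CPM (log2 interaction -2.27 ± 0.45, SE, adjusted p = 0.00591). Tph1, the tryptophan hydroxylase of serotonin synthesis, rose from at most 0.535 CPM in WT to 8.09 to 71.1 CPM (median 22.5) in miR-142 KO, 58.3 to 205 CPM (median 120) in CP CML and 194 to 344 CPM (median 232) in BC CML LSKs (log2 interaction -6.04 ± 0.89, SE, adjusted p = 3.71e-04). The size of the Tph1 interaction rests on the few counts in WT. Homer2, a postsynaptic scaffold protein that also binds NFAT, stood at 2.5 to 4.38 CPM (median 3.41) in WT and at 14.8 to 32 CPM (median 19.7) in miR-142 KO LSKs. With BCR-ABL, Homer2 was at 8.87 to 19.4 CPM (median 12.4) in the presence of miR-142 and at 13.7 to 21.6 CPM (median 17.5) in its absence (log2 interaction -2.22 ± 0.26, SE, adjusted p = 2.55e-05). The BC CML range of Homer2 overlapped those of both single mutants. The classes hold on the log2 scale, where additive effects multiply levels. When CPM were added instead, BC CML lay above the additive level by 427 CPM for Il1rl1 and 96.2 CPM for Tph1, opposite in sign to the log2 interaction. The same held for the neutrophil lineage genes Hp (32.2 CPM), Lcn2 (17.5 CPM) and Ms4a3 (9.24 CPM) and for Pklr (3.59 CPM), and in all for 13 of the 539 interaction genes.

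Of 24 mast cell and basophil genes tested, 3 were called, all with a negative interaction (12.5%, against 3.99% of all genes): Il1rl1, Gata2 and Mitf. Gata2, a transcription factor of stem cells, mast cells and megakaryocytes, was at 183 to 236 CPM (median 199) in WT and at 206 to 376 CPM (median 292) in miR-142 KO LSKs. With BCR-ABL, Gata2 was at 244 to 361 CPM (median 333) in the presence of miR-142 and at 267 to 330 CPM (median 298) in its absence (log2 interaction -0.64 ± 0.16, SE, adjusted p = 0.0282). Mitf, the transcription factor of mast cells and melanocytes, had medians of 11.2, 15.5, 39.5 and 29.8 CPM in the same order (log2 interaction -0.77 ± 0.20, SE, adjusted p = 0.0292). The median interaction over the 24 genes was -0.34 (-0.63 in females and -0.0022 in males), and BCR-ABL alone raised 22 of them, where 22.5% of all genes rose. Their summed level was 1990 to 2590 CPM in WT and 2620 to 5770 CPM in miR-142 KO LSKs, against 5040 to 8330 and 9870 to 18800 CPM with BCR-ABL in the presence and absence of miR-142. The part of mast cells in these results was not tested.

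Of 21 megakaryocyte and platelet genes, 3 (14.3%) were called, again all negative. Itga2b, integrin alpha IIb (CD41), was at 101 to 150 CPM (median 119) in WT and at 178 to 334 CPM (median 236) in miR-142 KO LSKs. With BCR-ABL, Itga2b was at 188 to 271 CPM (median 209) in the presence of miR-142 and at 192 to 295 CPM (median 231) in its absence, so that the double mutant overlapped both single mutants (log2 interaction -0.85 ± 0.20, SE, adjusted p = 0.0199). Its partner Itgb3 had medians of 31.6, 117, 55.4 and 74.5 CPM in that order of groups (log2 interaction -1.25 ± 0.28, SE, adjusted p = 0.0133). Gp9, a subunit of the platelet von Willebrand factor receptor, was more than additive instead, with medians of 5.87, 7.05, 4.62 and 3.64 CPM (log2 interaction -0.76 ± 0.20, SE, adjusted p = 0.0314), and its call was lost without WT library 5, miR-142 KO library 4, CP CML library 4 or BC CML library 1 (adjusted p 0.0503 to 0.0538).

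Granule genes of the neutrophil lineage gave negative interactions too. Of 17 secondary granule and mature neutrophil genes, 4 (23.5%) were called and all 4 were negative, with a median interaction of -1.66 over the 17. Lcn2, the iron-siderophore-binding lipocalin-2, was at 0.646 to 2.21 CPM (median 1.38) in WT and at 4.04 to 17.1 CPM (median 9.77) in miR-142 KO LSKs. With BCR-ABL, Lcn2 was at 16.3 to 63.4 CPM (median 36.5) in the presence of miR-142 and at 30.9 to 88.5 CPM (median 71.2) in its absence (log2 interaction -2.18 ± 0.53, SE, adjusted p = 0.0214). Cxcr2, the chemokine receptor of neutrophils, had medians of 7.35, 34, 11.2 and 27 CPM in the same order (log2 interaction -0.97 ± 0.24, SE, adjusted p = 0.0243). The calls of S100a9 (log2 interaction -3.01 ± 0.82, SE, adjusted p = 0.0364) and Pglyrp1 (log2 interaction -1.10 ± 0.30, SE, adjusted p = 0.0395) were lost in 11 and 10 of the 24 fits without 1 library, with adjusted p up to 0.0753 and 0.0722. The summed level of the 17 genes overlapped between the groups, at 198 to 289, 232 to 495, 257 to 332 and 260 to 442 CPM in the order used above, and the part of mature cells was not tested. Of 18 primary granule and neutrophil priming genes, 2 (11.1%) were called. Hp, haptoglobin, was at 3.14 to 32.5 CPM (median 9.66) in WT and at 47.5 to 114 CPM (median 80.1) in miR-142 KO LSKs. With BCR-ABL, Hp was at 99 to 171 CPM (median 145) in the presence of miR-142 and at 173 to 279 CPM (median 235) in its absence (log2 interaction -1.84 ± 0.44, SE, adjusted p = 0.0206). The other was the myeloid progenitor gene Ms4a3 (log2 interaction -1.46 ± 0.40, SE, adjusted p = 0.0378), whose call was lost in 11 of 24 fits without 1 library, with adjusted p up to 0.0712.

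Smaller examples covered a range of functions. Soat2, which esterifies cholesterol, had medians of 5.49, 9.11, 12.3 and 8.22 CPM in the groups as ordered above, so that miR-142 loss raised it in normal LSKs and lowered it in BCR-ABL LSKs (log2 interaction -1.18 ± 0.16, SE, adjusted p = 2.61e-04). Atf6, a sensor of endoplasmic reticulum stress, and Lss, lanosterol synthase of the cholesterol pathway, had log2 interactions of -0.42 ± 0.09, SE, adjusted p = 0.0102, and of -0.55 ± 0.13, SE, adjusted p = 0.0201.

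Genes that both changes lowered stopped short of the sum in the same way. Igf2r, the receptor that carries mannose 6-phosphate-tagged enzymes and IGF2 to lysosomes, was at 40.4 to 91 CPM (median 83.2) in WT and at 9.93 to 37.9 CPM (median 13.5) in miR-142 KO LSKs. With BCR-ABL, Igf2r was at 17.4 to 22.4 CPM (median 19.3) in the presence of miR-142 and at 9.75 to 19.2 CPM (median 15.2) in its absence. The 3 mutant groups overlapped one another and lay below every WT library, and the interaction was 1.67 ± 0.37 (log2 ± SE, adjusted p = 0.012). Rag2, a subunit of the V(D)J recombinase, was at 13.7 to 33.2 CPM (median 21.4) in WT and at 2.43 to 9.42 CPM (median 8.1) in miR-142 KO LSKs. With BCR-ABL, Rag2 was at 1.53 to 4.63 CPM (median 2.9) in the presence of miR-142 and at 2.85 to 6.05 CPM (median 3.47) in its absence (log2 interaction 2.00 ± 0.39, SE, adjusted p = 0.00511). Of 22 lymphoid priming genes, 3 (13.6%) were called, Rag2, Tespa1 and Dntt, the terminal deoxynucleotidyl transferase, with 2 positive and 1 negative. Dntt fell from a median of 920 CPM in WT to 234 CPM with miR-142 loss, 226 CPM with BCR-ABL and 153 CPM with both (log2 interaction 1.53 ± 0.43, SE, adjusted p = 0.044), and its call was lost in 18 of 24 fits without 1 library, with adjusted p up to 0.0868.

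Lmo2, Hoxa9 and Phlda3 were among the lowered genes too. Lmo2, an adaptor of the stem cell transcription complex, had medians of 683, 587, 492 and 569 CPM in the same order of groups (log2 interaction 0.37 ± 0.08, SE, adjusted p = 0.00694). Hoxa9, a homeobox gene of stem cells and leukemia, was at 125 CPM in WT and at 81, 82.4 and 81.9 CPM in the mutant groups (log2 interaction 0.56 ± 0.15, SE, adjusted p = 0.035), with its call lost in 17 of 24 fits without 1 library and adjusted p up to 0.084. Phlda3, an AKT inhibitor induced by p53, was at 1.94 to 3.69 CPM (median 2.68) in WT and at medians of 0.909, 1.12 and 1.32 CPM in the mutant groups (log2 interaction 1.65 ± 0.28, SE, adjusted p = 0.0018). Runx3, a transcription factor of hematopoiesis, went the other way, raised by miR-142 loss from a median of 154 to 199 CPM and at 176 CPM in BC CML LSKs (log2 interaction -0.30 ± 0.07, SE, adjusted p = 0.0195). Of 41 myeloid and stem transcription factors, 4 (9.76%) were called: Lmo2, Runx3, Gata2 and Mitf.

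Some genes that BCR-ABL lowered did not differ from WT at the threshold in BC CML. Arl3, a small GTPase that delivers lipidated proteins to the cilium, was at 18 to 20.4 CPM (median 18.9) in WT and at 17 to 19.3 CPM (median 17.8) in miR-142 KO LSKs. With BCR-ABL, Arl3 was at 8.63 to 11.5 CPM (median 9.86) in the presence of miR-142 and at 16.8 to 20.5 CPM (median 19.2) in its absence. The CP CML range did not overlap any other group, the BC CML range overlapped both groups without BCR-ABL, and the interaction was 1.0 ± 0.09 (log2 ± SE, adjusted p = 6.56e-07). Abcg1, a cholesterol exporter, was at 100 to 126 CPM (median 113) in WT and at 87.8 to 115 CPM (median 106) in miR-142 KO LSKs. With BCR-ABL, Abcg1 was at 67.2 to 84.4 CPM (median 73.3) in the presence of miR-142 and at 99.6 to 124 CPM (median 114) in its absence (log2 interaction 0.72 ± 0.11, SE, adjusted p = 3.71e-04). The log2 effect of BCR-ABL on Abcg1 was -0.59 with miR-142 present and 0.13 (adjusted p = 0.171) without it. The ribosomal protein genes Rpl27a and Rpl31 had the same course, with log2 interactions of 0.33 ± 0.07, SE, adjusted p = 0.0151, and of 0.48 ± 0.11, SE, adjusted p = 0.013. They and Rpl15 (log2 interaction 0.37 ± 0.10, SE, adjusted p = 0.031) were the called genes among 80 of the cytosolic ribosome (3.75%), and the call of Rpl15 was lost in 16 of 24 fits without 1 library, with adjusted p up to 0.0865. Ribosomal protein genes have many processed copies, between which reads could be split.

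Several genes moved with each single change and did not differ from WT at the threshold with both. Ank, a pyrophosphate transporter, was at 50.8 to 63.3 CPM (median 53.8) in WT and at 64.5 to 79.3 CPM (median 71.5) in miR-142 KO LSKs. With BCR-ABL, Ank was at 64.5 to 95.4 CPM (median 79.5) in the presence of miR-142 and at 53 to 60.4 CPM (median 56.4) in its absence. Its miR-142 effect was 0.37 (log2) in normal and -0.51 in BCR-ABL LSKs, both past the threshold, and the interaction was -0.88 ± 0.11 (log2 ± SE, adjusted p = 4.81e-05). Mvb12b, a subunit of the endosomal sorting complex ESCRT-I, and Atp8a2, a phospholipid flippase, changed direction in the same way (log2 interactions -0.54 ± 0.08, SE, adjusted p = 2.70e-04, and -1.49 ± 0.18, SE, adjusted p = 4.81e-05). Tmem108 and Eda2r, a receptor of the tumor necrosis factor family and a p53 target, were lowered by either change and stood at medians of 3.32 and 1.57 CPM in BC CML against 3.23 and 1.34 CPM in WT LSKs (log2 interactions 2.27 ± 0.37, SE, adjusted p = 0.00123, and 2.64 ± 0.40, SE, adjusted p = 5.67e-04). Creb5, a CREB family transcription factor, had a median of 1.04 CPM in WT, fell to 0.256 CPM with miR-142 loss and 0.416 CPM with BCR-ABL, and was at 1.4 CPM with both (log2 interaction 4.34 ± 0.85, SE, adjusted p = 0.00519). For Creb5, WT library 2 stood at 6.1 CPM against 0.209 to 1.76 CPM in the other WT libraries. The WT range thus overlapped those of both single mutants. Over all genes, the miR-142 effect passed its threshold with opposite signs in normal and BCR-ABL LSKs for 63 interaction genes, the BCR-ABL effect did so with and without miR-142 for 78, and 26 genes did both.

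Other effects of miR-142 loss were smaller in BCR-ABL LSKs than in normal LSKs. Ccnd1, cyclin D1, was at 40.3 to 60.2 CPM (median 51.2) in WT and at 64.9 to 133 CPM (median 89.2) in miR-142 KO LSKs. With BCR-ABL, Ccnd1 was at 45.6 to 67.1 CPM (median 57.7) in the presence of miR-142 and at 47.5 to 73.6 CPM (median 57.8) in its absence (log2 interaction -0.85 ± 0.22, SE, adjusted p = 0.0266). The miR-142 KO range lay above that of WT and its lower end overlapped both leukemic groups. Cdk6, its kinase partner, had medians of 1440, 1780, 1570 and 1410 CPM (log2 interaction -0.38 ± 0.11, SE, adjusted p = 0.0449), with the call lost in 13 of 24 fits without 1 library and adjusted p up to 0.0854. They were the 2 called genes among 15 CDK inhibitors, D-type cyclins and partners (13.3%). Gclc, the catalytic subunit of glutathione synthesis, rose with miR-142 loss from a median of 101 to 130 CPM in normal LSKs, and was at 114 CPM in CP CML against 110 CPM in BC CML LSKs (log2 interaction -0.40 ± 0.08, SE, adjusted p = 0.00449). Of 33 NRF2 and antioxidant genes, 3 (9.09%) were called, the others being the glutathione reductase gene Gsr (log2 interaction -0.71 ± 0.19, SE, adjusted p = 0.0347) and Me1. Me1 went the other way (log2 interaction 1.24 ± 0.34, SE, adjusted p = 0.0405), with group means of 0.477 to 0.922 CPM. The log2 effect of miR-142 loss on Me1 was -0.28 (adjusted p = 0.372) in normal and 0.96 (adjusted p = 0.0037) in BCR-ABL LSKs. Cd33, a sialic acid-binding receptor of myeloid cells, was lowered by miR-142 loss from a median of 45 to 15.1 CPM in normal and from 45.6 to 36.7 CPM in BCR-ABL LSKs (log2 interaction 1.14 ± 0.26, SE, adjusted p = 0.0136). The call of Gsr was lost in 7 of 24 fits without 1 library, with adjusted p up to 0.0673.

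**Figure D4:**
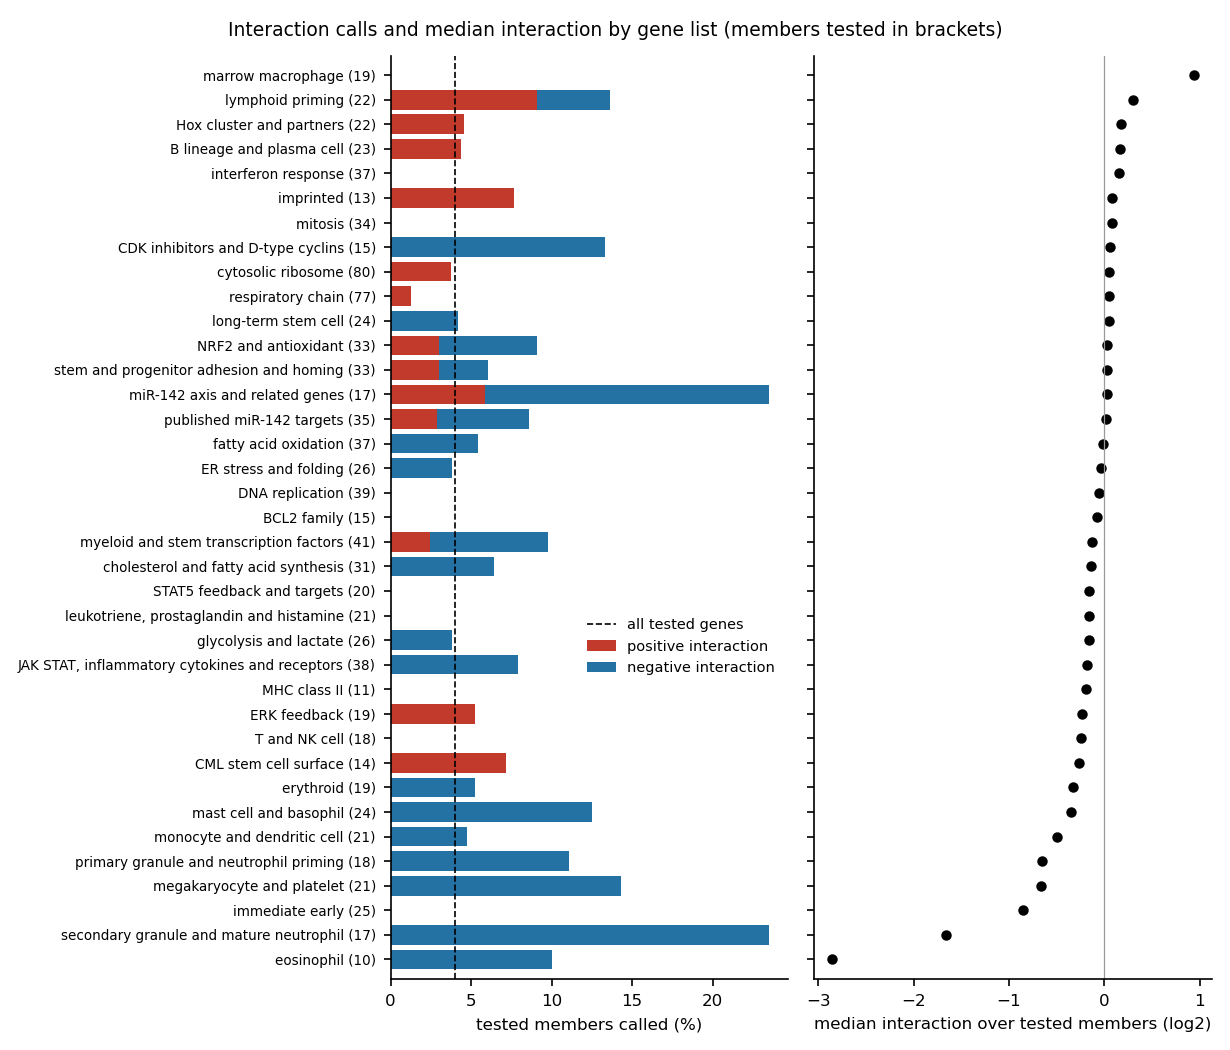
For each gene list, with the number of tested members in brackets, the left panel gives the percentage of members called with a positive or a negative interaction, beside the dashed line at 3.99% for all tested genes, and the right panel gives the median interaction (log2). The mature neutrophil and eosinophil lists have the most negative medians, at -1.66 and -2.85, and the macrophage list the highest, at 0.94, with 0 of its 19 genes called.

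Some gene groups held few or no interaction genes. As 3.99% of all genes were called, lists of these sizes would hold few calls at that same share. At an unadjusted p under 0.05 in edgeR's quasi-likelihood test, 2611 of all 13520 genes passed for the interaction. Of 37 interferon response genes, BCR-ABL lowered 31 in miR-142 wild-type LSKs, where 22.9% of all genes fell, and edgeR's quasi-likelihood test called an interaction for 0 of them, with 0 at an unadjusted p under 0.05 and a median interaction of 0.15. Of 77 respiratory chain genes, miR-142 loss raised 39 in normal and 57 in BCR-ABL LSKs and BCR-ABL raised 45 (19.9%, 20.4% and 22.5% of all genes rose), and 1 was called (1.30%), Ndufa4 (log2 interaction 0.36 ± 0.08, SE, adjusted p = 0.00953). By edgeR's quasi-likelihood test, no gene was called among 39 of DNA replication, 34 of mitosis, 15 of the BCL2 family, 20 STAT5 targets or 25 immediate early genes, for which the median interactions were -0.06, 0.08, -0.08, -0.16 and -0.85 and 2, 2, 3, 5 and 5 genes had an unadjusted p under 0.05. Each of these medians moved by more than 1.5 times without 1 library or within 1 sex, that of the immediate early genes to -1.19 in females and -0.15 in males, and the interferon median was -0.14 without BC CML library 3 and 0.36 in females. A p that misses the threshold does not show that these groups were additive. The macrophage median of 0.94, with 2 genes at an unadjusted p under 0.05, rested on genes whose summed level spanned 356 to 2470 CPM among the WT libraries, and it was 2.99 in females and -1.14 in males.

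A further list held Tspoap1, the neighbour of Mir142, and genes of stem cell regulation, fatty acid oxidation and mitochondrial dynamics, some of which the study names and others of which are related to those. Of 17 tested, 4 (23.5%) were called. Tspoap1 lies next to Mir142, at chr11:87760541-87785928 against chr11:87756864-87756927. It was at 18.3 to 36.1 CPM (median 23.1) in WT and at 3890 to 5780 CPM (median 4840) in miR-142 KO LSKs. With BCR-ABL, Tspoap1 was at 39.6 to 59.7 CPM (median 46.6) in the presence of miR-142 and at 3940 to 5260 CPM (median 4370) in its absence, so that no library with the KO allele lay under 3890 CPM and no other above 59.7 CPM. BCR-ABL raised Tspoap1 by 0.89 (log2) with miR-142 present, and its effect was -0.12 (adjusted p = 0.512) on the KO allele (log2 interaction -1.02 ± 0.20, SE, adjusted p = 0.00545). Cpt1a, the carnitine palmitoyltransferase that commits fatty acids to oxidation, was at 220 to 298 CPM (median 294) in WT and at 234 to 317 CPM (median 292) in miR-142 KO LSKs. With BCR-ABL, Cpt1a was at 304 to 441 CPM (median 374) in the presence of miR-142 and at 240 to 292 CPM (median 281) in its absence. The log2 effect of miR-142 loss on Cpt1a was 0.01 (adjusted p = 0.941) in normal LSKs and -0.44 in BCR-ABL LSKs (log2 interaction -0.45 ± 0.12, SE, adjusted p = 0.0345), a call lost without WT library 1 (adjusted p = 0.0537) or miR-142 KO library 4 (0.0543). Acsl1, which activates long-chain fatty acids, rose with either change, from a median of 71.4 CPM to 131 and 100, and was at 138 CPM in BC CML LSKs (log2 interaction -0.40 ± 0.10, SE, adjusted p = 0.0261). Cpt1a and Acsl1 were the 2 called among 37 fatty acid oxidation genes (5.41%).

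Prkca, protein kinase C alpha, was at 53.4 to 70.9 CPM (median 62.6) in WT and at 71.5 to 96.6 CPM (median 86.7) in miR-142 KO LSKs. With BCR-ABL, Prkca was at 57.5 to 81.4 CPM (median 68) in the presence of miR-142 and at 57.1 to 73.6 CPM (median 66.4) in its absence. miR-142 loss raised it by 0.49 (log2) in normal LSKs, while its effect in BCR-ABL LSKs was -0.02 with an adjusted p of 0.855 (log2 interaction -0.51 ± 0.13, SE, adjusted p = 0.0255). Hoxa9, given above, was the fourth gene of this group. The others did not pass. Msi2, an RNA-binding regulator of stem cells, was lowered in steps, at 412 to 702 CPM (median 550) in WT and at 292 to 404 CPM (median 339) in miR-142 KO LSKs. With BCR-ABL, Msi2 was at 303 to 426 CPM (median 352) in the presence of miR-142 and at 230 to 290 CPM (median 262) in its absence, with an interaction of 0.21 ± 0.15 (log2 ± SE, adjusted p = 0.464). Nfe2l2, which encodes NRF2, and Mfn1, mitofusin 1, were at 160 to 174 CPM (median 170) and 75.4 to 85.4 CPM (median 80.2) in BC CML LSKs against additive levels of 158 and 79.9 CPM (log2 interactions 0.10 ± 0.06, SE, adjusted p = 0.389, and 0.01 ± 0.06, SE, adjusted p = 0.973). Ppargc1a, which encodes the mitochondrial coactivator PGC-1 alpha, was at 2.33 to 6.46 CPM (median 3.87) in WT and at 0.575 to 2.39 CPM (median 1.42) in miR-142 KO LSKs. With BCR-ABL, Ppargc1a was at 1.27 to 2.45 CPM (median 1.93) in the presence of miR-142 and at 0.432 to 1.87 CPM (median 1.19) in its absence (log2 interaction 0.96 ± 0.44, SE, adjusted p = 0.232). The interactions of Cpt1b, Cpt1c, Mfn2, Opa1, Dnm1l, Fis1, Numb, Ash1l and Hoxa10 lay between -0.32 and 0.53 with adjusted p from 0.0676 to 0.988. That of Hoxa10 passed with DESeq2 (adjusted p = 0.0387), without WT library 3 (0.0456) and without CP CML library 6 (0.0384).

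**Figure D5:**
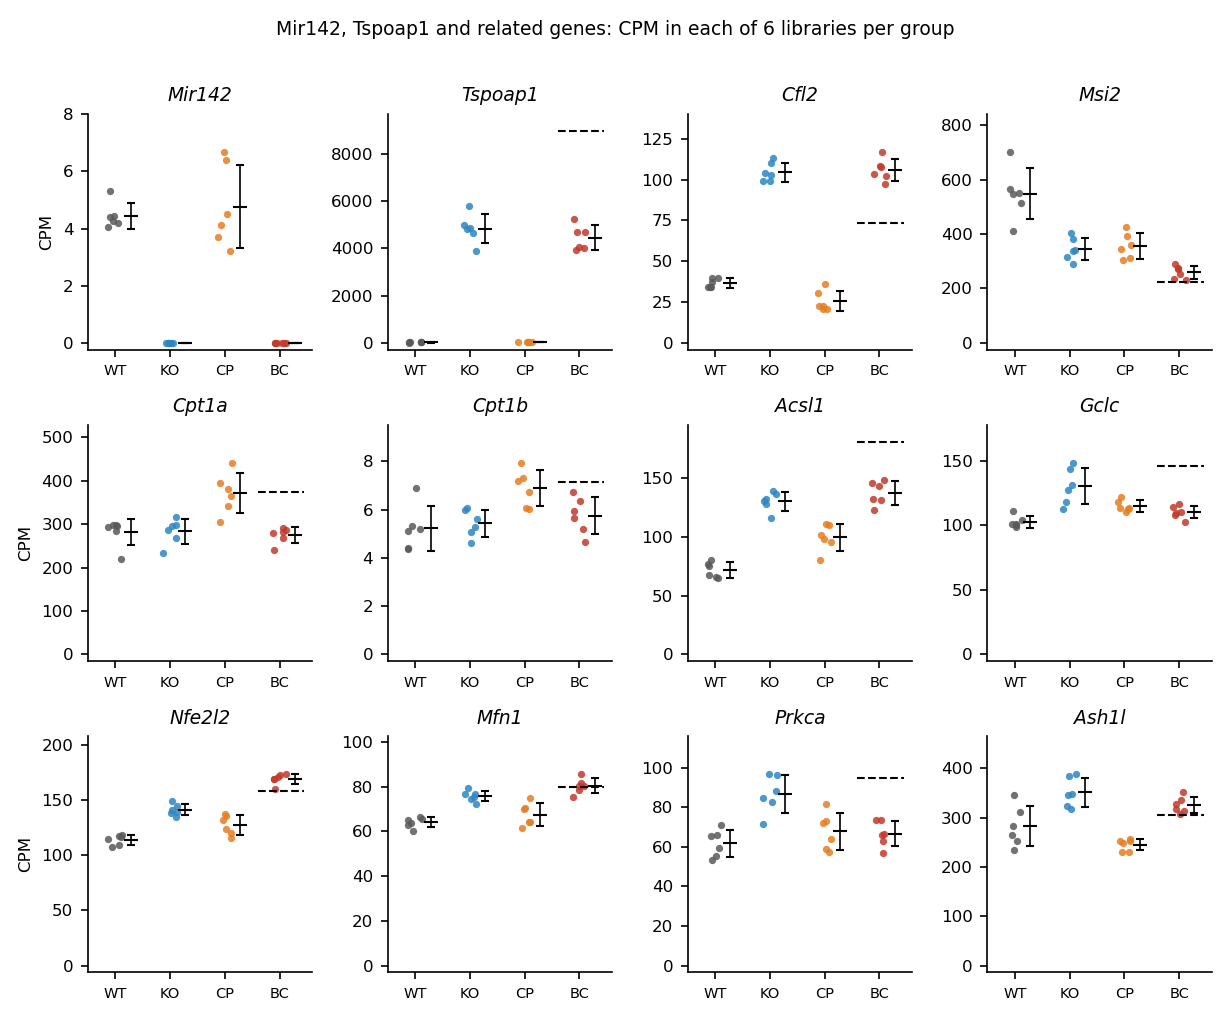
CPM of Mir142, its neighbour Tspoap1 and 10 further genes named in the study or related to those in each of 6 libraries per group, on linear axes, with mean and SD as bars and the additive BC CML level as a dashed line (not drawn for Mir142, which was at 0 in both KO groups). BC CML lies below the additive line for Tspoap1, Cpt1a, Acsl1, Gclc and Prkca and above it for Cfl2; no interaction was called for Msi2, Nfe2l2, Mfn1, Cpt1b or Ash1l.

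Matches to the miR-142 seeds were then counted in the 3′ UTRs of the interaction genes. The matches are ACACTAC for miR-142a-3p and ACTTTAT for miR-142a-5p, searched on the transcript strand in the longest 3′ UTR of each of 12618 tested genes in GENCODE M21. miR-142 loss raised 19.9% and lowered 16.4% of the tested genes in normal LSKs, and raised 20.4% and lowered 17.6% in BCR-ABL LSKs. Of genes higher in miR-142 KO than in WT, 11.7% held the 3p match, against 6.97% of all genes and 4.91% of genes lower in miR-142 KO. In BCR-ABL LSKs the shares were 12% of the genes that miR-142 loss raised and 4.98% of those it lowered. Interaction genes held it in 39 of 520 cases (7.50%), in 25 of 248 with a positive interaction (10.1%) and in 14 of 272 with a negative one (5.15%). Conversely, 4.44% of 879 genes with the 3p match were interaction genes, against 4.10% of 11739 without it, with median log2 interactions of 0.0225 and -0.00217. The 5p match was in 15.9% of all genes, 25% of the positive and 11.8% of the negative interaction genes. Median 3′ UTR lengths were 1178 bases for all genes, 1314 for the positive and 1364 for the negative ones. These shares were not tested.

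Of 35 published miR-142 targets, 3 were called (8.57%, against 3.99% of all genes): Prkca, Lifr and Cfl2. In its longest 3′ UTR, Lifr had 0 matches to either seed, and Prkca had 0 to the 3p seed and 2 to the 5p seed. Cfl2, the actin-severing protein cofilin-2, was at 34.1 to 40.1 CPM (median 35.8) in WT and at 98.9 to 113 CPM (median 103) in miR-142 KO LSKs. With BCR-ABL, Cfl2 was at 20.8 to 36 CPM (median 22.8) in the presence of miR-142 and at 97.3 to 117 CPM (median 106) in its absence. Both groups without miR-142 lay above both groups with it and overlapped each other, and the log2 effect of BCR-ABL on Cfl2 was -0.51 with miR-142 present and 0.02 (adjusted p = 0.897) without it (log2 interaction 0.53 ± 0.14, SE, adjusted p = 0.0329). Its call was lost in 17 of 24 fits without 1 library, with adjusted p up to 0.0816. Its 3′ UTR holds 2 matches to the 3p seed, at chr12:54860463-54860485 and chr12:54860423-54860445 of mm10 on the minus strand, and Ptprg and Ndst3, high only in the double mutant, hold 1 each, at chr14:12238797-12238819 and chr3:123528762-123528784. Ptprg also holds 1 5p match, at chr14:12240597-12240619. The single 5p match of Fermt2 is at chr14:45459750-45459772, and Il1rl1, raised by either change, has 1 3p match at chr1:40463429-40463451. The matches below are shown because the levels of their genes in the 4 groups are given above. A match is no evidence of binding. The matches are in capitals with neighbouring bases in lower case, 5′ to 3′.
Cfl2, 3p, first match: tttcccgatgagtgtACACTACt
Cfl2, 3p, second match: catatgagtcttgaaACACTACa
Ptprg, 3p: atagcaatctaataaACACTACc
Ndst3, 3p: tagagctcacagacgACACTACc
Il1rl1, 3p: tatagctgagattgtACACTACa
Fermt2, 5p: ataaagtaagcttgaACTTTATt

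Sex and transcript length were set beside these results. All 539 interaction genes had an interaction of the same sign in the 3 females and the 3 males of each group. These genes were called from the same 24 libraries, so the shared signs are no independent test. The test of a difference between the sexes called 0 of 13520 genes with edgeR's quasi-likelihood test, with 620 at an unadjusted p under 0.05. With 12 libraries of 1 sex, 28 genes were called in females and 50 in males. The median gene length in the deposited table was 3.28 kb over all tested genes, 3.29 kb for positive and 4.01 kb for negative interaction genes, and the part of length in the result was not tested.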

How the data were processed

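Bulk poly-A RNA-seq libraries of sorted bone marrow LSKs from 24 mice, 6 per group, were analysed. Per the labels and the study's methods, RNA was extracted with a miRNeasy micro kit, libraries were made with the KAPA mRNA HyperPrep kit, and paired reads were trimmed with Trimmomatic and FASTP, aligned to mm10 with STAR 2.6.0 and counted per gene with HTSeq-count 0.11.1. The annotation and strand setting of the counting were not given in the sources used here. The deposited values were raw counts per gene for each mouse, with gene length in kilobases in a further column. The methods speak of 5 mice per group, whereas the table and labels hold 6, all of which were used. The labels carry a mouse number for each sample, so the replicates were separate animals.

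Genes were filtered with filterByExpr, libraries were scaled by TMM with edgeR's default reference (miR-142 KO library 1), and 1 model of 4 group means was fitted to all 24 libraries with edgeR 4.0.16 (limma 3.58.1, R 4.3.3). Contrasts were tested with the quasi-likelihood test and Benjamini-Hochberg adjustment over all 13520 tested genes, at a threshold of 0.05. SE is the absolute log2 estimate divided by the square root of F. CPM used the TMM-scaled totals, except in the check of the gate, which used unscaled totals. No count column was left out. The fit was tested on simulated data before use. Seed matches and figures used Python 3.11.15 with NumPy 2.4.6 and pandas 2.3.3.

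Genes named in the text were Mir142, Tspoap1 and the related genes listed with them; in each class and sign, up to 6 by largest interaction and 4 by smallest p among interaction genes whose mean reached 1 CPM in some group and whose symbol is an established one; up to 4 called genes per gene list by smallest p; and up to 5 each by smallest p whose miR-142 or BCR-ABL effect changed sign. Exceptions are stated where they occur. Some genes that this rule names are not reported here. The members, gene lists and rule were chosen with earlier results of these data known. Alternatives were the likelihood ratio test, DESeq2 1.42.0, other normalizations, filters, thresholds and class rules, sex as a covariate, each sex alone, each mouse left out and, added after seeing the data, each library as the TMM reference.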

Additional observations from a re-analysis of the deposited data

Results flagged for a closer look

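Of 358 group values tested for a mouse standing apart from its group, 22 (6.15%) passed Dixon's 95% limit, where chance gives about 1 in 20. In library 3 of BC CML, Car1 was at 2.22 CPM, against 0.424 to 0.933 CPM in the other 5, and in library 1 of BC CML, Dnm1l was at 238 CPM, against 202 to 213 CPM in the other 5. In library 3 of BC CML, Nfe2l2 was at 160 CPM, against 170 to 174 CPM in the other 5, and in library 3 of BC CML, Rag2 was at 6.05 CPM, against 2.85 to 3.81 CPM in the other 5. In library 5 of BC CML, S100a9 was at 9.7 CPM, against 1.5 to 2.02 CPM in the other 5, and in library 5 of BC CML, Scd1 was at 1.06 CPM, against 0.33 to 0.475 CPM in the other 5. In library 2 of WT, Ccl5 was at 3.34 CPM, against 0.962 to 1.42 CPM in the other 5, and in library 1 of WT, Cpt1a was at 220 CPM, against 284 to 298 CPM in the other 5. In library 2 of WT, Creb5 was at 6.1 CPM, against 0.209 to 1.76 CPM in the other 5, and in library 2 of WT, Gata2 was at 236 CPM, against 183 to 202 CPM in the other 5. In library 6 of WT, Igf2r was at 40.4 CPM, against 72.3 to 91 CPM in the other 5, and in library 5 of WT, Mir142 was at 5.32 CPM, against 4.05 to 4.43 CPM in the other 5. In library 3 of WT, Pglyrp1 was at 16 CPM, against 5.66 to 8.96 CPM in the other 5, and in library 6 of WT, Rpl27a was at 69.2 CPM, against 54.2 to 59.8 CPM in the other 5. In library 1 of WT, Rpl31 was at 19.9 CPM, against 24.7 to 26.6 CPM in the other 5. In library 3 of WT, Syde2 was at 27.1 CPM, against 29.4 to 30.4 CPM in the other 5. In library 3 of miR-142 KO, Grin2c was at 0.0442 CPM, against 0 CPM in each of the other 5, and in library 5 of miR-142 KO, Mab21l1 was at 0.041 CPM, against 0 CPM in each of the other 5. In library 2 of miR-142 KO, Cpt1c was at 0.574 CPM, against 0.164 to 0.309 CPM in the other 5. In library 2 of miR-142 KO, Ptprg was at 0.398 CPM, against 0.133 to 0.221 CPM in the other 5, and in library 3 of miR-142 KO, Rag2 was at 2.43 CPM, against 7.48 to 9.42 CPM in the other 5. In library 3 of miR-142 KO, Scd1 was at 2.7 CPM, against 0.467 to 1.28 CPM in the other 5. Among the flagged genes, Cpt1a, Grin2c, Pglyrp1 and S100a9 lost their call in some fits without 1 library. Only for Cpt1a was the flagged mouse, WT library 1, among those whose omission lost the call. The effect of miR-142 loss differed between normal and BCR-ABL LSKs, by the interaction term, for 539 genes, which are the subject of the results above.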

How the results depend on the processing

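No paired analysis was possible because the labels number mice individually and give no replicate numbers shared between groups. On the log2 scale, the direction of the interaction was kept for all 539 genes in every alternative that tested them. The alternatives used the same libraries or part of them, so this is no independent test. When CPM were added, 13 had the opposite sign. The number of interaction genes was 671 with the likelihood ratio test, 562 with RLE size factors, 562 with upper quartile scaling, 447 with no filter on low counts, 574 with at least 1 CPM in 6 libraries and 617 with sex as a covariate. DESeq2 called 891, with 239 more and 639 less than additive. In females alone (12 libraries) there were 28 interaction genes, with 5 more than additive, 20 less than additive and 3 reversed, 6 and 4 genes whose miR-142 and BCR-ABL effects changed sign, 2308 and 1693 genes called for miR-142 loss in normal and BCR-ABL LSKs, and 3059 and 938 for BCR-ABL with and without miR-142. In males alone there were 50, with 20, 24 and 6 in the classes, 13 and 10 changes of sign, 2915 genes for miR-142 loss in normal LSKs and 3749 for BCR-ABL with miR-142. An absolute log2 difference of at least 1 left 168 interaction genes (50 more and 109 less than additive, with 23 and 27 changes of sign) and 1054, 992, 930 and 828 genes in the 4 single comparisons, in the order used for females. An adjusted p under 0.01 left 135 (35 more and 98 less than additive and 2 reversed, with 12 and 10 changes of sign), and 3167, 3412 and 3308 genes for miR-142 loss in normal and BCR-ABL LSKs and BCR-ABL without miR-142. Fewer libraries or a stricter limit enter these fits by construction; the cause of the DESeq2 difference was not tested. Judged by the miR-142 effect alone, 238 genes had a larger and 238 a smaller effect in BCR-ABL LSKs and 63 changed sign.

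With each mouse left out in turn, interaction genes numbered 375 (without BC CML library 1) to 787 (without WT library 3), more than additive genes 80 to 227, less than additive genes 280 to 635 and reversed genes 5 to 13. Changes of sign of the miR-142 effect numbered 47 to 76 and of the BCR-ABL effect 58 to 96. Genes called for miR-142 loss numbered 4246 to 5062 in normal and 4404 to 5608 in BCR-ABL LSKs, and for BCR-ABL 5348 to 6542 with and 4542 to 6471 without miR-142. Of 4331 values of 76 of the interaction genes given by name, 287 lost the call and 0 changed sign. Among genes with no call, the log2 interaction of Mfn1 (0.00672) was below 0 with DESeq2 (-0.00238), RLE (-0.00191), the filter at 1 CPM (-0.0143), females alone (-0.0694) and the TMM references WT 3 to 6 (-0.000776, -0.000407, -0.00325, -0.00166), CP CML 1 to 6 (-0.0195, -0.0162, -0.0161, -0.0124, -0.0101, -0.00793) and BC CML 1 to 6 (-0.00326, -0.00166, -0.00633, -0.0031, -0.00324, -0.00642), and without 1 mouse it ranged from -0.0419 to 0.0241. The interaction of Mir142, at 0 counts in both groups without miR-142, was 0.195 in females and -0.21 to 0.00619 without 1 mouse. The interaction of Nfe2l2 was -0.00278 in females, and in males those of Dnm1l and Mfn2 were -0.0154 and 0.0167. The interaction of Cpt1c (0.0246) was -0.17 in females, -0.00122 with the TMM reference CP CML 1 and -0.262 to 0.261 without 1 mouse. Genes near 0 in a group rest on few counts.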

Other observations

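Lists of cilium, actin and p53 genes were made after called members had been seen, so the genes that prompted each list are given apart from the rest. Of 75 genes of cilia and basal bodies, which build the microtubule-based organelle of signalling and motility, the 13 that prompted the list all had a positive interaction, and among the other 62 there was 1, Rpgrip1l. BCR-ABL alone lowered 46 of the 75 and raised 0 by edgeR's quasi-likelihood test, including 35 of the other 62, where 22.9% of all genes fell. Of 49 actin and focal adhesion genes, 18 prompted the list (4 positive and 14 negative), and the other 31 held 1 of each sign. Of 33 p53 targets on the list, Phlda3, Eda2r and Ccng1 prompted it, and 0 of the other 30 were called. Ptprv, named above as a p53 target, was not on this list, and its log2 interaction of -1.46 was opposite in sign to those of the 3 genes.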
